A study of Bos taurus with 64 samples.

Results

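The miR-181 family comprised 4 names in the deposited table of bovine muscle miRNAs: bta-miR-181a, bta-miR-181b, bta-miR-181c and bta-miR-181d, written below without the species prefix. They were taken by name from the 1030 miRNA names of the table, and no other name in it held miR-181. All 4 were abundant enough to be among the 318 names tested. Their levels were compared between steers on a high-concentrate diet and on zero-grazed grass, between Holstein-Friesian and Charolais steers, and between steers of low and high residual feed intake (RFI, how far an animal's feed intake lies from the intake its weight and growth predict).

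miRNAs are short RNAs that pair through a seed at their 5′ end with messenger RNAs and lower the output of those messengers. The 4 mature miR-181 RNAs carry the same seed and differ elsewhere, so their predicted targets overlap widely. In mouse, miR-181 rises as myoblasts differentiate and represses Hox-A11, an inhibitor of the myogenic programme. In mouse muscle, miR-181a has been tied to mitochondrial turnover through targets of the autophagy pathway, and in lymphocytes the family is known for tuning T-cell receptor signalling.

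The study holds 64 libraries of skeletal muscle from 59 steers, 8 for each combination of diet, breed and RFI class. The concentrate groups were fed mostly rolled barley with soya bean meal, molasses and a limited amount of grass silage, in the later of 2 phases of 70 days. The grass groups were fed freshly cut perennial ryegrass in the earlier phase, and 14 days of acclimatisation lay between the phases. On concentrate there were low-RFI and high-RFI Holstein-Friesian (dairy) and low-RFI and high-RFI Charolais (beef) groups, and the same 4 groups existed on grass. Because all grass libraries came from the earlier phase, diet and phase order, and with it the steers' age, cannot be told apart. Only 5 steers gave a library on both diets, and 1 of them was in the low-RFI class on concentrate and in the high-RFI class on grass.

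Total counts ran from 4795936 to 12245099 per library. Of 7 skeletal muscle markers, miR-486 and miR-133a, which are enriched in striated muscle, were the most abundant at 104825 and 74317 CPM. The other markers were far lower: miR-133b had 8983, miR-208b 825, miR-499 346, miR-1 247 and miR-206 14.6 CPM. CPM are read counts divided by library depth after correction with TMM factors, and these ran from 0.511 to 2.43. The factors depend on a reference library, and the one selected, low-RFI Holstein-Friesian grass replicate 2, was also 1 of 2 libraries that stood apart from their group in the smooth muscle miRNA miR-143 (110805 CPM there, and 50025 CPM in high-RFI Holstein-Friesian grass replicate 2). Calls on members that depended on this choice are given with their number of references below.

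The family was dominated by 1 member. miR-181a averaged 3447 ± 655 CPM over all libraries (SD, n = 64) and ranked 17 among the 318 tested miRNAs. miR-181c and miR-181b lay next to each other at ranks 90 and 91, with 94.1 ± 18.2 and 90.9 ± 20.1 CPM. miR-181d was the scarcest at 11.7 ± 2.82 CPM and rank 168. The levels of miR-181c and miR-181b thus differed by less than their spread, while the other steps in the order were far wider than it. Of all reads given to the family, 94.5% ± 0.766 were miR-181a, 2.63% ± 0.542 miR-181c, 2.50% ± 0.349 miR-181b and 0.326% ± 0.0782 miR-181d (SD, n = 64). Deposited counts ran from 9814 to 109928 for miR-181a, from 261 to 3245 for miR-181c, from 248 to 3037.5 for miR-181b and from 30 to 339 for miR-181d. The counts of miR-181d are therefore the least precise. Together the 4 members made up 0.326% ± 0.0999 of a library on concentrate and 0.436% ± 0.15 on grass (SD, n = 32 each).

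In the RefSeq gene table of assembly ARS-UCD2.0 the family has 6 genes in 3 pairs of neighbours. MIR181A-1 lies nearest to MIR181B-1, and no other gene overlaps them. MIR181A-2 and MIR181B-2 lie within the span of NR6A1, which encodes an orphan nuclear receptor, and of the long noncoding RNA LOC100848407. MIR181C and MIR181D lie within the span of NANOS3, which encodes a germ-cell RNA-binding protein. The counts were made on another build, ARS-UCD1.2, so positions are not printed. The table has 1 row each for miR-181a and miR-181b, so reads from their 2 genes cannot be told apart. The mature RNAs of the family resemble each other, miR-181b and miR-181d closely, and the labels do not say how reads that fit more than 1 were divided.

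**Figure D1:**
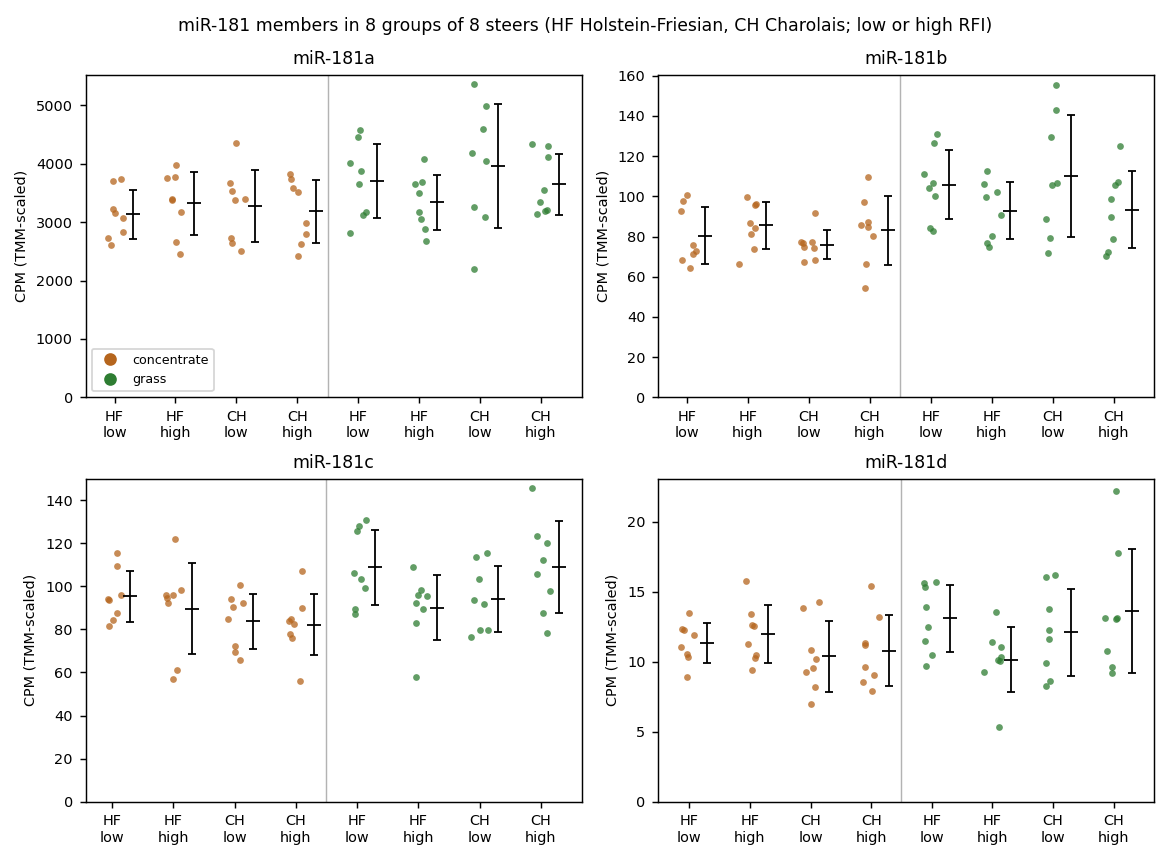
CPM of each member (vertical axes, linear from 0) in the 8 groups of 8 steers, with concentrate groups in brown to the left and grass groups in green to the right; points are libraries, and black marks are the mean and SD. miR-181b averaged 81.3 CPM on concentrate and 101 CPM on grass, and the ranges of the diets overlapped for all 4 members.

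The diet comparison asked which muscle miRNAs differ between steers on a cereal-rich and on a grass diet. miR-181b, miR-181c and miR-181a were lower on concentrate, by 1.23-fold, 1.14-fold and 1.13-fold, and miR-181d was not called. That is 3 of 4 members, all lower, and the call on miR-181a depended on the method and scaling, as given below. Over all 318 tested miRNAs 34.0% were called, 57 higher and 51 lower, and the median log2 difference was -0.19 over the 4 members and 0.01 over all. The gap between diets in mean CPM was about as large as the SD between steers for miR-181b and smaller than it for the other members, and no member separated the diets.

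miR-181b had the clearest difference. Its level on concentrate had a lowest value of 54.2, a median of 78.9 and a highest value of 110 CPM, against 70.1, 101 and 156 CPM on grass. The ranges overlapped, but the concentrate libraries lay low: 31 of 32 were below the grass median. The log2 difference was -0.30 ± 0.07 (SE, edgeR quasi-likelihood test, adjusted p = 0.00036). Its genes lie beside those of miR-181a, the member with which it correlated most closely across steers.

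miR-181c, the neighbour of miR-181d, had 56.0 CPM at the lowest, 90.0 at the median and 122 at the highest on concentrate, against 57.8, 98.1 and 145 CPM on grass. The ranges were nearly the same at their low end, and 26 of 32 concentrate libraries were below the grass median. The log2 difference was -0.19 ± 0.07 (SE, edgeR, adjusted p = 0.0183).

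miR-181a, the bulk of the family, had 2416, 3298 and 4349 CPM as the lowest, median and highest level on concentrate, against 2194, 3601 and 5369 CPM on grass. The single lowest library was a grass one, and 23 of 32 concentrate libraries were below the grass median. The log2 difference was -0.18 ± 0.07 (SE, edgeR, adjusted p = 0.0305). This call rested on the scaling: with each of the 64 libraries as TMM reference in turn, miR-181a passed with 24 of them (log2 -0.19 to -0.12, adjusted p 0.0213 to 0.15), whereas miR-181b and miR-181c passed with 64 of 64. By DESeq2 miR-181a was not called (log2 -0.15, adjusted p = 0.0632), while by limma-voom it was (log2 -0.18, adjusted p = 0.0408). In edgeR it was lost with DESeq2 size factors (adjusted p = 0.0699) and with total counts without miR-10b (adjusted p = 0.0514). miR-181b and miR-181c were called in all 4 of these fits.

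miR-181d had 6.96, 10.9 and 15.8 CPM as the lowest, median and highest level on concentrate, against 5.35, 11.6 and 22.2 CPM on grass. Both the lowest and the highest library were on grass, and 20 of 32 concentrate libraries were below the grass median. The log2 difference was -0.13 ± 0.08 with a 95% interval of -0.30 to 0.04 (SE, edgeR, adjusted p = 0.218).

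Scaling by total counts alone moved the median of all tested miRNAs by -0.25 on the log2 scale, and the 4 members were then all called lower, as were 118 of the 318 miRNAs, against 7 called higher. The members' differences are therefore stated relative to the other miRNAs. Without the 2 libraries apart in miR-143, 1 of them the TMM reference, miR-181b was the 1 member called. miR-181a then had a log2 difference of -0.15 and miR-181c of -0.14.

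Leaving out single libraries also moves the reference. Under such omissions miR-181b passed in 64 of 64 fits, miR-181c in 58 and miR-181a in 9. With the reference held, miR-181b and miR-181c passed in 63 of 63 fits and miR-181a in 38. The omission that brought miR-181a furthest from the threshold was that of low-RFI Charolais grass replicate 7, its highest library (log2 -0.15 with the reference held, edgeR adjusted p = 0.0766; log2 -0.11 and adjusted p = 0.171 where the reference moved with it).

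Averaged over breeds, markers of blood moved with diet in the same libraries. The summed level of the 2 erythrocyte miRNAs, miR-451 and miR-144, ran from 680 to 49576 CPM on concentrate (median 4992) and from 300.2 to 11355 CPM on grass (median 2321), and both were called higher on concentrate. The summed level of 8 leukocyte miRNAs ran from 474 to 2671 CPM on concentrate (median 751) and from 314 to 1418 CPM on grass (median 673), and 5 of the 8 were called higher, among them miR-142-5p and miR-342 but not miR-146a. Within breeds, 2 of 2 erythrocyte miRNAs were called higher in Charolais steers (median log2 difference 1.72) and 0 of 2 in Holstein-Friesian steers (median 0.67). Of the 8 leukocyte miRNAs, 3 were called higher in Charolais and 2 in Holstein-Friesian steers. No marker was at 0 in any library. The miR-181 members called lower moved the other way from these markers. Markers of connective tissue moved the same way as the members on average over breeds, but the breeds differed. The summed level of 4 fibroblast miRNAs ran from 1519 to 2672 CPM on concentrate (median 1806). On grass it ran from 1460 to 7894 CPM (median 1890). Of the 4, 1 was called lower on average, miR-21-5p. In Holstein-Friesian steers 3 of 4 were called lower (median log2 difference -0.61), and in Charolais steers 0 of 4 were called (median -0.02). The 2 smooth muscle miRNAs, miR-143 and miR-145, summed to 26683 ± 6342 CPM on concentrate and 31351 ± 17191 CPM on grass (SD, n = 32 each), and 0 of 2 were called. Each of these sums was held mostly by 1 miRNA: miR-451 (mean 6142 CPM over all libraries), miR-142-5p (584), miR-21-5p (1897) and miR-143 (28035). The part of the cell mixture in the members' differences was not tested. In bulk muscle, fewer cells of a type and less RNA per cell cannot be told apart.

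The deposited values of miR-181a also differed in kind between the diets. They were whole in 32 of 32 grass libraries, while 12 of 32 concentrate libraries held a value with a remainder of 0.5. For miR-181b 16 concentrate and 19 grass libraries held such a value, and miR-181c and miR-181d were whole throughout. Among the 318 tested names, 4 were fractional on concentrate only: let-7a-3p, miR-181a, miR-19b and miR-2285au. Another 3 were fractional on grass only, and 33 on both diets. The labels do not say how such values arose, and their part in the difference of miR-181a was not tested.

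Within breeds the members differed in which passed. In Holstein-Friesian steers miR-181b was called lower, at 83.0 ± 12.8 CPM on concentrate and 99.4 ± 16.8 CPM on grass (SD, n = 16 each), and 16 of 16 concentrate libraries were below the grass median (log2 -0.26 ± 0.10, edgeR adjusted p = 0.042). The other members there had log2 differences of -0.13 ± 0.09 for miR-181a, -0.10 ± 0.09 for miR-181c and 0.01 ± 0.12 for miR-181d (SE). There 1 of 4 members passed, where 24.2% of all tested miRNAs did. The call on miR-181b was near the threshold: it passed with 55 of 64 TMM references, it was lost in 27 of the 63 fits that omitted 1 library with the reference held (adjusted p up to 0.084), and without the 2 libraries apart in miR-143 its adjusted p was 0.0511.

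In Charolais steers miR-181b and miR-181c were called lower. miR-181b averaged 79.6 ± 13.3 CPM on concentrate and 102 ± 26 CPM on grass (SD, n = 16 each), and 15 of 16 concentrate libraries were below the grass median (log2 -0.35 ± 0.10, edgeR adjusted p = 0.00588). Over the 64 TMM references this difference ran from -0.35 to -0.24, and it passed with all of them. It was lost without the concentrate libraries from steers sampled on both diets (log2 -0.22, adjusted p = 0.118). miR-181c averaged 83.0 ± 13.2 CPM on concentrate and 102 ± 19.5 CPM on grass, again with 15 of 16 below the grass median (log2 -0.29 ± 0.09, edgeR adjusted p = 0.019). It passed with 52 of 64 references (adjusted p up to 0.0841). miR-181a at -0.24 ± 0.09 (adjusted p = 0.0669) and miR-181d at -0.28 ± 0.12 (adjusted p = 0.082) were not called. Thus 2 of 4 members passed, where 20.8% of all tested miRNAs did. With the steer as a random block miR-181a was called as well (limma-voom, log2 -0.24, adjusted p = 0.0469). It was not called with the steer as a fixed block (edgeR, log2 -0.24, adjusted p = 0.0613). Over the 64 TMM references miR-181a passed with 0 (log2 -0.24 to -0.13, edgeR adjusted p 0.0669 to 0.33). With single libraries omitted miR-181a passed in 0 of 64 fits, and in 2 of 63 with the reference held. With the reference held, miR-181c was lost in 5 of 63 fits: without low-RFI grass replicates 4 or 8, high-RFI grass replicate 1, low-RFI concentrate replicate 5 or high-RFI concentrate replicate 4 (adjusted p 0.0503 to 0.0598).

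Whether the diet difference itself differed between the breeds was tested as an interaction. None of the 4 members was called, with 0 at an unadjusted p under 0.05 and 0 by DESeq2 or limma-voom, where 3.46% of all tested miRNAs were called. The largest was that of miR-181d, whose diet difference was higher by 0.29 ± 0.17 in Holstein-Friesian than in Charolais steers on the log2 scale (95% interval -0.04 to 0.62, edgeR adjusted p = 0.325). For miR-181b it was 0.09 ± 0.14 (95% interval -0.18 to 0.37).

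**Figure D2:**
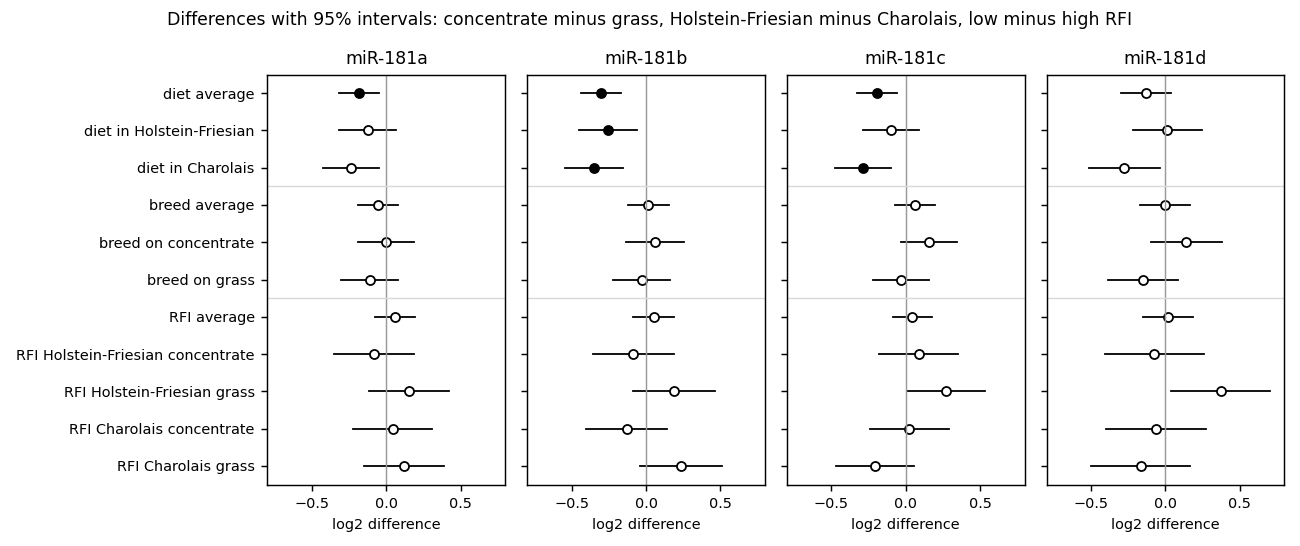
Log2 differences of each member (points) with their 95% intervals (lines) for diet, breed and RFI comparisons from 1 edgeR fit; filled points were called at an adjusted p of 0.05, open points were not. The filled points are all to the left of 0 and all are diet comparisons, with miR-181b at -0.30 on average over breeds.

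The 5 steers sampled on both diets allowed the same difference to be read within an animal. miR-181b was lower on concentrate in 5 of 5 steers. Its levels were 66.3, 74.4, 74.9 and 54.2 CPM on concentrate in the 4 Charolais steers, against 106, 125, 88.8 and 72.2 CPM in the same steers on grass. In the single Holstein-Friesian steer it had 95.9 CPM on concentrate and 102 CPM on grass. The mean log2 difference was -0.43 ± 0.28 (SD, n = 5; exact two-sided sign-flip permutation p = 0.0625, the smallest that 5 pairs can give).

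The other members were less uniform within steers. miR-181c was lower on concentrate in 4 of 5 steers (mean log2 -0.23 ± 0.33, exact permutation p = 0.188, n = 5), miR-181a in 3 of 5 (-0.21 ± 0.36, exact permutation p = 0.312, n = 5) and miR-181d in 3 of 5 (-0.26 ± 0.51, exact permutation p = 0.438, n = 5). The Holstein-Friesian steer had more miR-181a, miR-181c and miR-181d on concentrate than on grass. These steers are part of the 64 libraries, so the values are not separate evidence of the diet difference.

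**Figure D3:**
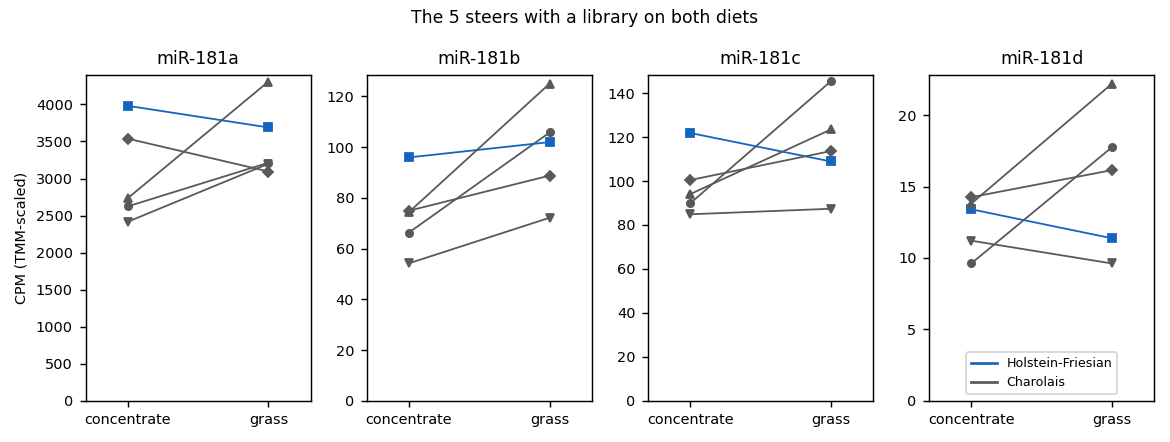
CPM (vertical axes, linear from 0) of each member in the 5 steers with a library on both diets, concentrate left and grass right; each line is a steer, blue for Holstein-Friesian and grey for Charolais. All 5 lines of miR-181b run higher on grass, while those of the other members cross.

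The breed comparison asked which miRNAs separate a dairy from a beef breed. Averaged over diets, none of the 4 members was called, with 0 at an unadjusted p under 0.05 and 0 by DESeq2 or limma-voom, while 21.7% of all tested miRNAs were. miR-181a had 2463, 3300.3 and 4573 CPM as the lowest, median and highest level in Holstein-Friesian steers, against 2194, 3457 and 5369 CPM in Charolais steers. The Holstein-Friesian range lay inside the Charolais range. The log2 difference was -0.06 ± 0.07 (95% interval -0.19 to 0.08).

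The other members were as close. miR-181b averaged 91.2 ± 16.9 CPM in Holstein-Friesian and 90.6 ± 23.2 CPM in Charolais steers (SD, n = 32 libraries each, here and below). miR-181c averaged 96.0 ± 17.7 CPM in Holstein-Friesian and 92.3 ± 18.9 CPM in Charolais steers. miR-181d averaged 11.6 ± 2.26 CPM in Holstein-Friesian and 11.7 ± 3.33 CPM in Charolais steers. The log2 differences of miR-181b, miR-181c and miR-181d ran from -0.01 to 0.06, with 95% intervals that stayed within -0.17 and 0.19. The signs are not firm, since scaling by total counts moved the median of all miRNAs by 0.14 and turned miR-181a and miR-181d positive. With miR-10b, the most abundant miRNA, left out of total counts, miR-181b (0.21) and miR-181c (0.25) were called higher in Holstein-Friesian steers, while the median of all moved by 0.19.

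By diet, breed differences were also uncalled in all 4 members. On concentrate 1.57% of all tested miRNAs were called between breeds, and miR-181c had the widest member difference, at 92.5 ± 16.8 CPM in Holstein-Friesian and 83.0 ± 13.2 CPM in Charolais steers (log2 0.16 ± 0.09, edgeR adjusted p = 0.366, SD over n = 16 each). On grass 30.2% of all were called, and the members lay between -0.15 and -0.03. The signs of miR-181b and miR-181c there depended on the TMM reference. Over the 64 references miR-181b ran from -0.03 to 0.08 and miR-181c from -0.04 to 0.08. On both diets 0 members had an unadjusted p under 0.05, and DESeq2 and limma-voom called 0.

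The RFI comparison asked which miRNAs go with feed efficiency, a low-RFI steer eating less than predicted. By edgeR 0 of 4 members were called in the average over breeds and diets, in each of the 4 combinations of breed and diet, and in the interactions of RFI with breed and with diet. The share of all tested miRNAs called was 0% in each of these 7 comparisons as well. At an unadjusted p under 0.05 there were 11 of 318 in the average, 34 and 17 in Holstein-Friesian steers on concentrate and on grass, 10 and 15 in Charolais steers on concentrate and on grass, and 32 and 14 for the interactions with breed and with diet. DESeq2 and limma-voom called 0 members in all 7. Averaged over breeds and diets, miR-181a had 3521 ± 766 CPM in low-RFI and 3373 ± 523 CPM in high-RFI steers (SD, n = 32 libraries each). The log2 difference was 0.06 ± 0.07 (95% interval -0.08 to 0.19). The other 3 members differed by 0.02 to 0.05 on the log2 scale.

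Among the 4 combinations of breed and diet, only Holstein-Friesian steers on grass had members with an unadjusted p under 0.05, and there were 2. miR-181d had 9.72, 13.2 and 15.7 CPM as the lowest, median and highest level in low-RFI steers, against 5.35, 10.2 and 13.5 CPM in high-RFI steers. The ranges overlapped, with 7 of 8 low-RFI steers above the high-RFI median. The log2 difference was 0.37 ± 0.17 (edgeR unadjusted p = 0.029, adjusted p = 0.71).

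In the same groups miR-181c had 87.2, 105 and 131 CPM as the lowest, median and highest level in low-RFI steers, against 57.8, 94.0 and 109 CPM in high-RFI steers. The ranges overlapped, and 6 of 8 low-RFI steers were above the high-RFI median (log2 0.27 ± 0.13, edgeR unadjusted p = 0.0452, adjusted p = 0.878). miR-181a and miR-181b differed by 0.15 ± 0.13 and 0.19 ± 0.14. High-RFI Holstein-Friesian grass replicate 6 was the lowest library of both miR-181c and miR-181d among the 32 grass libraries. With single libraries omitted the difference lay between 0.21 and 0.37 for miR-181d, 0.13 and 0.24 for miR-181c, 0.04 and 0.15 for miR-181b, and 0.01 and 0.13 for miR-181a. For all 4 members the differences given here were the highest over the 64 TMM references, whose lowest values were 0.25 for miR-181d, 0.15 for miR-181c, 0.06 for miR-181b and 0.02 for miR-181a. Without the 2 libraries apart in miR-143, both of which are in these groups, they were 0.24, 0.13, 0.04 and 0.03 for miR-181d, miR-181c, miR-181b and miR-181a.

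The remaining RFI contrasts had no common direction. On concentrate the members of Holstein-Friesian steers lay between -0.09 and 0.09, and those of Charolais steers between -0.13 and 0.04 on the log2 scale. In Charolais steers on grass miR-181b averaged 110 ± 30.3 CPM in low-RFI and 93.4 ± 19.3 CPM in high-RFI steers (SD, n = 8 each; log2 0.24 ± 0.14, edgeR adjusted p = 0.86). miR-181c was on the other side there, at 94.3 ± 15.3 CPM in low-RFI and 109 ± 21.4 CPM in high-RFI steers (log2 -0.21 ± 0.13, adjusted p = 0.86). Among interactions, the RFI difference of miR-181b was lower by 0.32 ± 0.14 on concentrate than on grass (edgeR unadjusted p = 0.0224, adjusted p = 0.811). That of miR-181c was higher by 0.27 ± 0.13 in Holstein-Friesian than in Charolais steers (unadjusted p = 0.0451, adjusted p = 0.486). Both were among the 4 members tested in 14 contrasts, and neither passed.

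Across steers the highest correlations between members on each diet were those of the 2 pairs that are gene neighbours. Deviations of log2 CPM from the group means were correlated within each diet, for 6 pairs of members. miR-181a and miR-181b had a Pearson r of 0.60 on concentrate and 0.80 on grass (Spearman 0.60 and 0.77; permutation test, adjusted p = 0.00084 and 8e-05 for Pearson, n = 32 each). miR-181c and miR-181d had an r of 0.61 on concentrate and 0.78 on grass (Spearman 0.62 and 0.73; adjusted p = 0.000857 and 8e-05 for Pearson). Without the 2 libraries farthest from the median on the first measure, r was 0.59 on concentrate and 0.73 on grass for miR-181a and miR-181b, and 0.53 on concentrate and 0.69 on grass for miR-181c and miR-181d.

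Members of different gene pairs had lower values, with r between 0.28 and 0.44 on concentrate and between 0.16 and 0.48 on grass. For miR-181a and miR-181c, which differ in level and in locus, r was 0.44 on concentrate (Spearman 0.48; permutation test, adjusted p = 0.0238) and 0.16 on grass (Spearman 0.14; adjusted p = 0.406). Of the other cross pairs, miR-181b and miR-181d on grass (r = 0.48, Spearman 0.43, adjusted p = 0.0132) and miR-181a and miR-181d on concentrate (r = 0.39, Spearman 0.46, adjusted p = 0.0465) also passed the permutation test. Adjusted p-values are Benjamini-Hochberg values over 24 correlations, and the difference between pairs was not itself tested. Libraries share a scaling factor, and with total-count scaling all 12 Pearson values lay between 0.70 and 0.93, so the size of r depends on the scaling. The ratio of miR-181a to miR-181b was 40.1 ± 5.68 on concentrate and 36.9 ± 4.97 on grass (SD, n = 32 each). The ratio of miR-181c to miR-181d was 8.02 ± 1.35 on concentrate and 8.47 ± 1.34 on grass. Both need no scaling factor. For both, the means on the diets differed by less than the SD between steers, which does not decide whether the means differ. The difference in these ratios between diets was not tested.

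**Figure D4:**
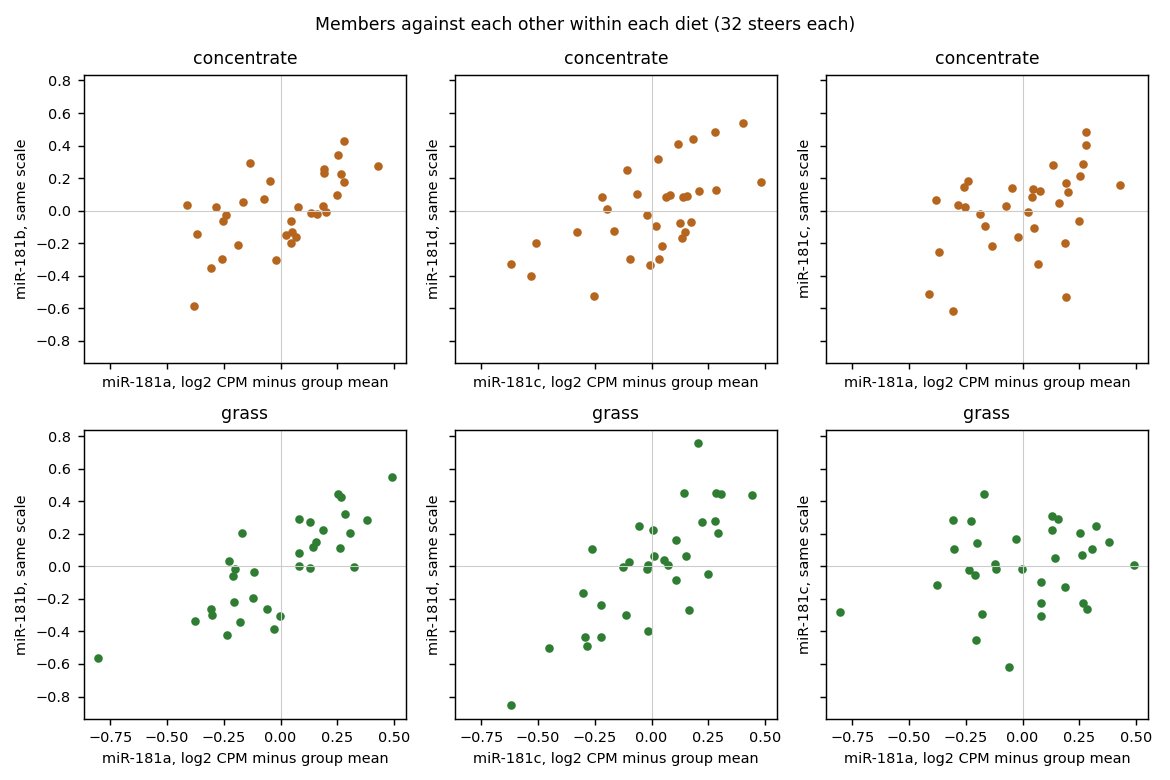
Deviation of log2 CPM from the group mean for 3 pairs of members, concentrate above and grass below; each point is a library (32 per diet), and axes are log2 units. miR-181a against miR-181b and miR-181c against miR-181d follow a rising line (r = 0.60 and 0.61 on concentrate, 0.80 and 0.78 on grass), while miR-181a against miR-181c is more scattered.

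Outside the family, 314 tested miRNAs were ranked by their correlation with each member over the deviations of all 64 libraries. Nearest to miR-181a were miR-30d (r = 0.45), miR-378 (0.42) and miR-532 (0.42), and nearest to miR-181b were miR-532 (0.44), miR-424-5p (0.38) and miR-2284x (0.37). Nearest to miR-181c were miR-27a-3p (0.64), miR-27b (0.61) and let-7e (0.61), and nearest to miR-181d were miR-30a-5p (0.60), miR-320a (0.50) and miR-130a (0.50). Among these names miR-181a and miR-181b shared only miR-532, and miR-181c and miR-181d shared none. These are the highest of many values and share library, depth and scaling, so they describe the libraries and carry no test.

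Other miRNAs with the roles for which miR-181 is known were counted beside it. Of 30 miRNAs known to regulate myoblasts 29 were tested, and on concentrate against grass 6 were called higher and 3 lower (median log2 difference -0.02, against 0.01 for all tested). Over all 318 the share was 34.0%, with 57 higher and 51 lower, so the list's share was near that of all tested miRNAs. The 3 most abundant of them were not called: miR-486, with 110100 CPM on concentrate and 99550 CPM on grass (log2 0.17 ± 0.09), miR-133a (-0.06 ± 0.10) and miR-26a (-0.22 ± 0.09, adjusted p = 0.0557). Of 22 miRNAs tied to mitochondria or hypoxia 21 were tested, with 5 higher and 2 lower (median 0.03), which is again near the share over all. This list shares miR-1, miR-499, miR-378, miR-23a and miR-27b with the myoblast list, so the counts of the lists are not independent. The 3 most abundant of the 21 differed in direction. miR-30e-5p had 8593 ± 1711 CPM on concentrate and 7243 ± 1805 CPM on grass and was called higher (log2 0.25 ± 0.08, edgeR adjusted p = 0.0139). miR-27b had 5866 ± 999 CPM on concentrate and 6599 ± 947 CPM on grass and was called lower (-0.17 ± 0.06, adjusted p = 0.0196). miR-378, encoded in a gene for a coactivator of transcription, was not called (-0.03 ± 0.08).

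Between breeds, averaged over diets, 9 of the 29 myoblast regulators were called higher and 3 lower in Holstein-Friesian steers, and 3 higher and 1 lower of the 21 mitochondrial and hypoxia miRNAs. Over all 318 it was 35 higher and 34 lower, or 21.7%. The miR-181 members were in neither direction. In the RFI comparisons 0 members of both lists were called.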

How the data were processed

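The authors deposited 1 table of estimated counts of miRNAs, not normalized, with 1030 names and a column for each of 64 libraries. The build ARS-UCD 1.2 and the tools cutadapt 2.6, FastQC 0.11.8, edgeR 3.5 and R 3.4 are named, per the submitters' processing notes. For the aligner, the counter and the selection of small RNA: not given in the sources used here. Values were rounded to whole counts, and filterByExpr over 8 groups kept 318 names. Only 0.00592% of counts lay in untested names.

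Groups, breed, RFI class, diet and animal were taken from the labels. Counts were scaled with TMM and fitted with the quasi-likelihood model of edgeR 4.0.16 in R 4.3.3 (8 group means, 56 residual degrees of freedom, 14 contrasts), with calls at a Benjamini-Hochberg adjusted p of 0.05 over all 318 within a contrast. CPM values carry the SD and log2 differences the standard error. Correlations used log2 CPM with a prior count of 2 and 100000 permutations (Python 3.11.15, scipy 1.17.1). Alternatives used DESeq2 1.42.0, limma 3.58.1 (voom), other scalings, filters and omitted libraries, and, chosen after the data were seen, other TMM reference libraries. The scripts were tested on simulated data. The steers on both diets pair libraries by the animal numbers of the labels (correlation of libraries of a steer 0.392), and the steer was a block in alternatives only. Within a group, replicates are separate steers. Counting error and the spread between steers were not separated.

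The members, the lists and the libraries apart in miR-143 were chosen with earlier results of these data known. Named were all 4 members, for each the 3 miRNAs most correlated with it, and the 3 most abundant tested miRNAs of each list. Mature sequences were not used here.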

Additional observations from a re-analysis of the deposited data

Results flagged for a closer look

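miR-181b in low-RFI Charolais steers on concentrate had 1 library far from the other 7 of its group: replicate 7 had 91.6 CPM and the next highest 77.4 CPM. The gap was 0.59 of the group's range, above Dixon's 95% value of 0.526 for 8 samples. Of 32 such tests (4 members in 8 groups) 1 passed this value, and 1.6 would be expected by chance.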

How the results depend on the processing

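Counts of miR-181d are low, diet is tied to phase, and several calls lie near the threshold. For miR-181b averaged over breeds, the call and its direction held in all alternatives run (log2 -0.55 to -0.23). The 7 RFI comparisons, breed by diet, breed on grass and breed on concentrate gave 0 members called in 77 of 77 alternatives each.

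Members called fell to 1 for the diet average without the libraries apart in miR-143. They fell to 2 with DESeq2, with DESeq2 size factors or with total counts without miR-10b (miR-181a lost). In Charolais steers they fell to 0 with total counts without miR-10b, and to 1 with no filter, with miR-181b and miR-181d summed, without the repeated steers' concentrate libraries (miR-181b lost), or with the least favourable TMM reference. In Holstein-Friesian steers they were 3 with total counts, and 0 without the libraries apart in miR-143 or with the least favourable reference. For the breed average 2 were called with total counts without miR-10b. The causes were not tested. With single libraries omitted, members called ranged from 1 to 3 for the diet average, 1 to 2 in Charolais and 0 to 1 in Holstein-Friesian steers.

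The diet difference of miR-181d in Holstein-Friesian steers, 0.01 as reported, became -0.0019 with DESeq2 size factors, -0.33 with total counts, -0.071 with total counts without miR-10b, -0.043 with no filter, -0.0062 with DESeq2, -0.027 without the repeated steers' concentrate libraries, -0.061 with the lowest TMM reference and -0.057 to 0.072 with single libraries omitted. The breed difference of miR-181d, -0.01 as reported, became 0.0024 with DESeq2 size factors, 0.14 with total counts, 0.18 with total counts without miR-10b, 0.024 with no filter, 0.0061 with DESeq2, 0.019 with limma-voom, 0.047 without the repeated libraries, 0.053 with the highest reference and -0.029 to 0.052 with single libraries omitted. The breed difference of miR-181b became -0.0058 without the repeated libraries, -0.013 with the lowest reference and -0.0084 to 0.064 with single libraries omitted, and that of miR-181a 0.093 with total counts and 0.13 with total counts without miR-10b. The RFI difference of miR-181a in Holstein-Friesian grass steers became -0.020 with total counts.

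With the steer as a replicate block the paired libraries gave 3 members called for the diet average, whether the block was random or fixed, and 3 and 2 in Charolais steers. The breed difference of miR-181d became 0.034 with the random and 0.086 with the fixed block, and that of miR-181b -0.028 with the fixed block. The block changed no call of a member in the diet, breed average and Holstein-Friesian grass RFI comparisons other than that of miR-181a in Charolais steers, with the random block.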
